A study of Mus musculus with 6 samples.

Results

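The cells described here are fibroblasts of the mouse sciatic nerve that carried RNA of 4 secreted factors, Cxcl13, Cxcl14, Ccl19 and Fgf10. A cell was taken as a fibroblast when it held at least 2 UMIs (unique molecular identifiers, each standing for 1 captured RNA molecule) of Pdgfra, Lum and Serpinf1 together and none of Sox10, Cdh5 or Myh11, which mark Schwann cells, endothelial cells and smooth muscle. Among these fibroblasts, a member held at least 3 UMIs of the 4 factors together, and more of them than of each of 3 other gene sums that mark the Pi16 class (Pi16, Dpp4, Sema3c, Smpd3), the Cilp class (Cilp, Comp, Sfrp4, Itgbl1) and the Angptl7 class (Angptl7, Sox9, Osr2, Abca6). This gave 646 members among 5094 fibroblasts (12.7%) and 10042 cells (6.43%) of the month 2 libraries. By the same rules on their own sums, 1212 fibroblasts fell in the Pi16 class, 1462 in the Cilp class and 903 in the Angptl7 class, and 871 fell in none. The members were thus selected on the counts of these 22 genes, whose levels are given as a description, with no test.

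The nerves came from wild-type C57BL/6J mice that had a partial sciatic nerve ligation (PSNL), in which a part of the nerve is tied off, or a sham operation without it. Live nucleated cells were sorted as DRAQ5+ DAPI- Myelin- CD45- Ter119- singlets, which removes myelin debris, immune cells and erythroid cells, and were sequenced with 10X Chromium 3' version 3 chemistry. Each library pooled 4 nerves, from males and females in equal number, so a library and not a mouse or a cell is the replicate. At month 2 there was 1 sham and 1 PSNL library in each of 2 batches, and a single PSNL library was available at day 5, whose sham counterpart was not analysed here.

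Chemokines are small secreted proteins that attract cells bearing their receptors. CXCL13 acts on CXCR5 and draws B cells, CCL19 acts on CCR7 and draws naive T cells and mature dendritic cells, CXCL14 is made by many epithelia and stromal cells, and FGF10 is a mesenchymal growth factor that signals to neighbouring cells through FGFR2. CXCL13 and CCL19 are best known from the stromal cells that organise lymphoid tissue, while in peripheral nerve fibroblasts of the epineurium, perineurium and endoneurium make the collagen sheath around axons and vessels and release factors that act on both.

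The month 2 libraries held 4099617 (sham) and 7509261 UMIs (PSNL) in batch 1 and 16626617 (sham) and 17481607 UMIs (PSNL) in batch 2, and 544, 2327, 3394 and 3777 cells in that order. The sham library of batch 1 stood apart, with the fewest cells and the highest mitochondrial share in members (median 3.18%, against 1.28% to 1.63% in the other 3 libraries). Over all pairs of libraries 10 cell barcodes were shared, of which 1 belonged to a member, and no barcode of a member was shared between month 2 libraries. Scrublet, a doublet caller, marked 0.329% of the month 2 cells, too few to count as a working screen, so doublets were in effect not removed. Marker RNA of other cells was measured in the summed members: Schwann cell markers made up 257 to 536 CPM (UMIs of a gene or list per 1000000 UMIs of the summed cells), mural cell markers 79.5 to 134 CPM, immune markers 9.22 to 10.5 CPM and perineurial markers 10.3 to 42.2 CPM, beside 58046 to 78378 CPM for 10 fibroblast identity genes. Endothelial markers stood at 640 CPM in the sham library of batch 1 and at 138 to 186 CPM in the other 3. In sentences that give 4 library values, the order is sham then PSNL of batch 1, followed by sham then PSNL of batch 2.

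Cxcl14 was the gene that most members shared. It was found in 83.6% of them, Ccl19 in 61.0%, Cxcl13 in 36.4% and Fgf10 in 34.2%. Cells outside the fibroblast gate, at median depths of 2126 to 3697 UMIs against 3272 to 5987 in members, held a UMI of Cxcl14 in 3.51% to 8.99% of cases, of Ccl19 in 2.26% to 8.77%, of Cxcl13 in 0.298% to 3.51% and of Fgf10 in 0.367% to 1.75%. The members were 3.57% to 11.8% of the cells of a library and carried 52.5% to 83.2% of the Cxcl14 UMIs found in its cells, 50.5% to 68.4% of its Cxcl13, 34.5% to 63.4% of its Ccl19 and 29.4% to 55.5% of its Fgf10.

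The level of Cxcl14 (ENSMUSG00000021508.11, chr13:56288643-56296551 on the minus strand of GRCm38) was 2416, 2509, 2755 and 1956 CPM in members. Its range was narrow over the libraries, 2409 ± 334 CPM (SD, n = 4), against mean levels of 46.0 CPM in the Pi16 class, 202 in the Cilp class and 24.7 in the Angptl7 class. Ccl19 (ENSMUSG00000071005.7, chr4:42754525-42756577, minus strand) was at 486, 693, 354 and 225 CPM, so that both libraries of batch 1 lay above both of batch 2. Its class means were 54.9, 61.5 and 28.2 CPM. Cxcl13 (ENSMUSG00000023078.6, chr5:95956951-95961068, plus strand) was at 1951, 721, 697 and 735 CPM, 1 high library and 3 that lay close together. The Pi16 class also held it, with a mean of 240 CPM, beside 43.2 in the Cilp class and 3.87 in the Angptl7 class. Fgf10 (ENSMUSG00000021732.14, chr13:118669791-118792115, plus strand) was the lowest of the 4, at 113, 248, 95.6 and 129 CPM, beside class means of 52.8, 29.2 and 3.34 CPM. These levels count 3' ends and are not scaled by transcript length, and the coordinates are those of the GENCODE vM21 genes.

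**Figure D1:**
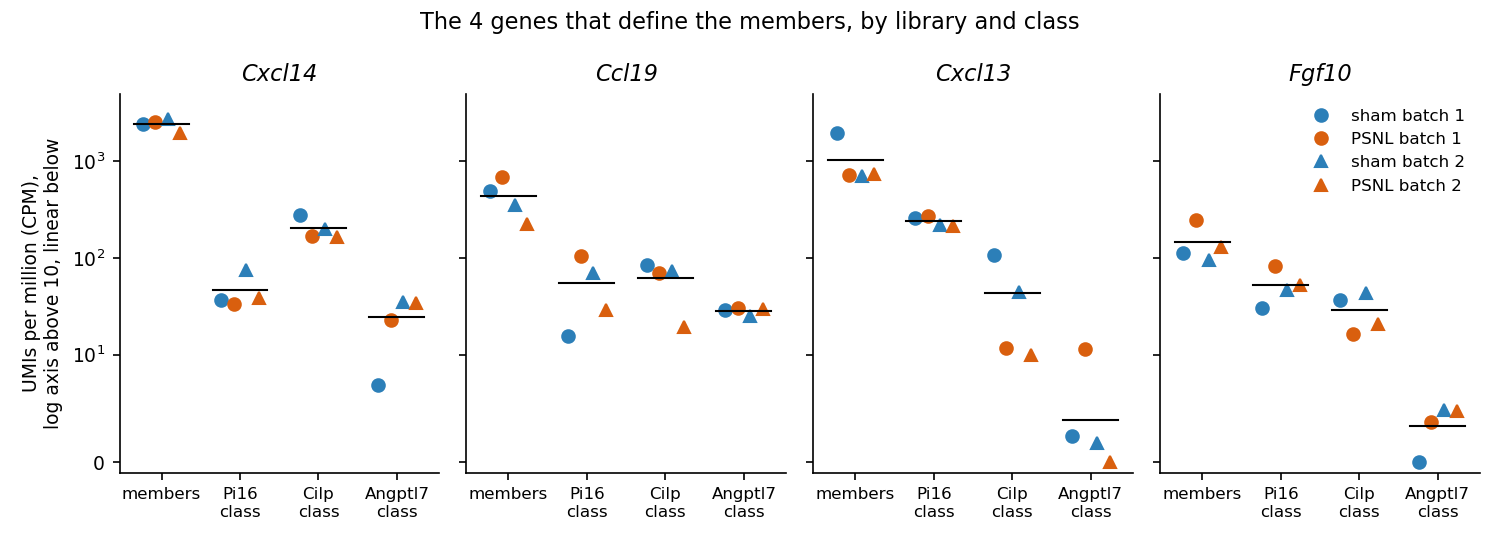
Level of the 4 marker genes in CPM of the summed cells (y axis, logarithmic above 10 and linear below) in members and in 3 other fibroblast classes; each point is 1 month 2 library and the line is the mean. Cxcl14 lies between 1956 and 2755 CPM in members of every library, and Cxcl13 is the marker with 1 library, sham batch 1, far above the others.

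The 4 genes were not found together in most members. A UMI of 1 of them was found in 175 members, of 2 in 252, of 3 in 165 and of all 4 in 54. The pair Cxcl14 and Ccl19 was the commonest, in 318 members (49.2%), followed by Cxcl13 with Cxcl14 in 170 and Cxcl13 with Ccl19 in 165. With each cell thinned to 1000 UMIs, 69.7% of the members kept a UMI of Cxcl14, 28.6% of Ccl19, 24% of Cxcl13 and 11.6% of Fgf10, so the unthinned shares partly reflect depth. By the gene with the most UMIs, 423 members (65.5%) were led by Cxcl14, 105 (16.3%) by Cxcl13, 66 (10.2%) by Ccl19 and 21 (3.25%) by Fgf10, and 31 were tied. Detection also varied between libraries. Ccl19 was found in 75.0% and 71.2% of members of batch 1 and in 49.7% and 49.6% of batch 2, whereas Cxcl14 stayed between 80.3% and 87.5%.

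The cut at 3 UMIs passed through a continuous range. The median sum of the 4 genes was 11 UMIs in members, the highest was 210, and 369 members (57.1%) had at least 10. Just inside the cut, at a sum of 3, lay 55 members, of which 76.4% held Cxcl14, 32.7% Ccl19, 23.6% Fgf10 and 16.4% Cxcl13. Just outside, at a sum of 2 that was still larger than the other 3 sums, lay 42 cells, with Cxcl14 in 57.1%, Ccl19 in 40.5%, Fgf10 in 19% and Cxcl13 in 14.3%. A further 528 fibroblasts reached 3 UMIs but had more of another class, and 39 were tied. The sums of the Pi16, Cilp and Angptl7 genes were 0 in 49.5%, 52.2% and 68.3% of members, so the remainder also held RNA of genes that mark another class.

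Whether members became more or less frequent after nerve injury was not settled by these libraries. Members were 13.1% of the fibroblasts in sham batch 1 (95% exact Clopper-Pearson interval 10.3% to 16.5%), 18.6% in PSNL batch 1 (16.6% to 20.8%), 10.4% in sham batch 2 (9.02% to 11.9%) and 9.43% in PSNL batch 2 (7.97% to 11.1%). The share was higher with PSNL in batch 1 and lower in batch 2, by 5.49 and -0.97 percentage points, and the groups overlapped. The mean difference, PSNL minus sham, was 2.26 points (two-sided exact permutation test over 2 against 2 libraries, p = 1, where the smallest p this design allows is 0.333). Counted over all cells rather than fibroblasts, the shares were 11.8%, 11.3%, 5.39% and 3.57%, and the difference turned to -1.12 points (exact permutation p = 0.667). The members are the same in both counts and only the denominators differ. Fibroblasts numbered 487, 1417, 1759 and 1431, among 544, 2327, 3394 and 3777 cells. Thinning every cell to 1000 UMIs gave 12.1%, 17.9%, 10.6% and 8.46% and left both batch directions as they were. Without the PSNL library of batch 1 the difference was -2.34 points, so its sign rested on that library. The intervals cover counting error only.

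**Figure D2:**
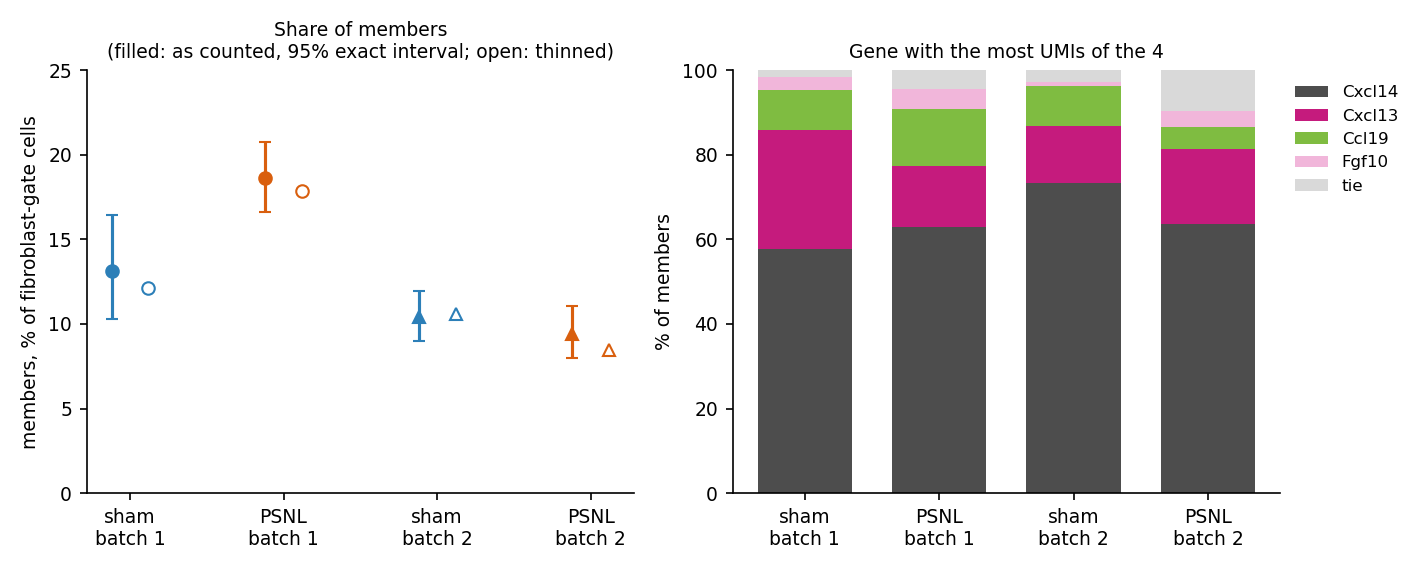
Left, members as a percentage of fibroblast-gate cells (y axis) in each month 2 library, filled points as counted with 95% exact intervals and open points after thinning to 1000 UMIs per cell; right, percentage of members (y axis) by the marker gene with the most UMIs. PSNL batch 1 has the highest share at 18.6%, PSNL batch 2 the lowest at 9.43%, and Cxcl14-led cells are the majority of members in every library.

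The members were next compared with the 3 other fibroblast classes, to see which genes outside the rule went with the 4 markers. UMIs were summed per library and class and fitted with edgeR (quasi-likelihood, library as block, Benjamini-Hochberg threshold 0.05) over 10468 genes outside the rule. The classes were cut from these same cells, so a call here says that a difference recurred from library to library and is not a test of whether the cells are distinct. Against the Pi16 class 819 genes were higher and 820 lower in members (15.7% of those fitted), against the Cilp class 463 and 499 (9.19%), and against the Angptl7 class 1258 and 1194 (23.4%). Higher in all 3 contrasts were 118 genes (1.13%) and lower in all 3 were 31 (0.296%). In 93 genes (0.888%) every member sum lay above all 12 class sums. Without the sham library of batch 1, which stood apart, 1490, 909 and 2267 genes differed from the 3 classes, and 97 were higher and 24 lower in all 3 contrasts. Without the PSNL library of batch 1 the count against the Cilp class was 631, and those in all 3 contrasts were 77 higher and 17 lower.

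Among signals to immune cells, the chemokine Cxcl12, which retains cells that bear CXCR4, was at 2242, 2158, 2471 and 1220 CPM in members. All 4 values lay above every library of the other classes, whose means were 171 (Pi16), 645 (Cilp) and 380 CPM (Angptl7), with log2 fold changes of 3.58 ± 0.17 (SE), 1.53 ± 0.15 and 2.34 ± 0.16. Vcam1, an adhesion molecule to which lymphocytes and monocytes bind, was at 190, 263, 159 and 183 CPM. It too lay above all class values, with means of 49.5, 59.7 and 42.9 CPM and log2 fold changes of 2.03 ± 0.13, 1.65 ± 0.13 and 2.18 ± 0.15. The interleukin 1 receptor Il1r1 was at 298, 229, 163 and 216 CPM, above all class values (means of 73.6, 73.8 and 53.0 CPM). Il6, a cytokine of the acute response, was lower in level and more spread, at 36.0, 69.0, 12.4 and 23.7 CPM, and was the highest of the 4 classes in 3 of 4 libraries.

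Of 17 homeostatic and lymphoid stroma genes fitted, 4 were higher and 4 lower than in the Pi16 class, 3 and 0 against the Cilp class and 7 and 3 against the Angptl7 class, beside backgrounds of 7.82% higher and 7.83% lower, 4.42% and 4.77%, and 12% and 11.4% of all genes, against which the counts of every list of this comparison are read. Only Vcam1 and Cxcl12 of this list were higher in all 3 contrasts. Ccl21a, the other CCR7 ligand, was not detected in members (0 of 2910272 UMIs, which allows up to 1.03 CPM), although its near-identical gene copies make that count uncertain. Of 18 inflammatory chemokine and cytokine genes, 7 were higher and 2 lower against the Pi16 class, 6 and 0 against the Cilp class and 3 and 5 against the Angptl7 class. Thus the members did not hold the highest level of every chemokine. Ccl11, which attracts eosinophils, averaged 755 CPM in members and 2397 in the Angptl7 class, and Cxcl1, a neutrophil attractant, averaged 211 and 504 CPM.

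Of the 8 chemokine receptor and scavenger genes fitted, 0 were higher and 4 lower in members than in the Pi16 class, 0 and 1 against the Cilp class and 1 and 1 against the Angptl7 class, beside the background shares just given. Ackr3, the atypical receptor that takes up CXCL12, was at 162, 137, 94.4 and 152 CPM in members. These values were far under the Pi16 class mean of 834 CPM, at a log2 fold change of -2.57 ± 0.18, and near the Cilp and Angptl7 means of 159 and 104 CPM. Ackr4, which takes up CCL19, was not detected in members, where a count of 0 again allows up to 1.03 CPM.

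Genes of lipid handling formed another group. Lpl, the lipase that frees fatty acids from circulating lipoproteins, was at 1594, 2305, 1972 and 2348 CPM in members, beside 559, 550 and 276 CPM in the Pi16, Cilp and Angptl7 classes. Every member value exceeded every class value, with log2 fold changes of 1.93 ± 0.17, 1.80 ± 0.17 and 2.93 ± 0.19. Cebpa, an adipogenic transcription factor, was at 103, 100.3, 80.7 and 46.1 CPM, above all class values (means of 21.4, 20.5 and 27.8 CPM). Pparg, the nuclear receptor that drives adipogenesis, was at 5.14, 27.2, 11.2 and 13.2 CPM, low but the highest of the 4 classes in each library. Over the 20 genes of the lipid list the median log2 fold change was 0.75 against the Pi16 class (10 higher, 0 lower), 0.29 against the Cilp class (6 and 1) and -0.02 against the Angptl7 class (6 and 8), where the medians of all genes were 0.01, 0.01 and 0.03. Apoe, a lipid carrier, averaged 2379 CPM in members, above 218 and 1018 CPM in the Pi16 and Cilp classes and under 3757 CPM in the Angptl7 class. Of 6 adipocyte and muscle marker genes fitted, 0 were higher in members in any contrast. The 8 genes of that list summed to only 4 to 9 UMIs in members of a library (4.18 to 11.2 CPM), too few for this count to decide.

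Enzymes and other genes at low levels were also higher in members in all 3 contrasts. Cyp2f2, a cytochrome P450, was at 64.3, 36.6, 45.9 and 71.1 CPM in members beside 4.50, 9.57 and 1.09 CPM in the classes. Hsd11b2, which inactivates glucocorticoids, averaged 25.9 CPM, and Fads6, a member of the fatty acid desaturase family, averaged 25.1 CPM, both with class means under 7 CPM. Hp, which encodes the haemoglobin-binding protein haptoglobin, varied most among these genes, at 18.0, 87.8, 150 and 96.2 CPM, and overlapped with the classes, whose means were 22, 22.8 and 15.7 CPM. Its call in all 3 contrasts was lost with no replicate block, at a smallest log2 fold change of 1.81. The metalloprotease Adam12 overlapped as well, at 43.7, 43.9, 16.1 and 50.1 CPM.

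Both main type IV collagen chains of basement membranes, Col4a1 and Col4a2, were higher in members than in all 3 classes. Col4a1 was at 874, 897, 874 and 999 CPM, a narrow range well above the class means of 292, 231 and 324 CPM, and its log2 fold changes were 1.73 ± 0.17, 1.89 ± 0.18 and 1.46 ± 0.18. Its partner Col4a2 was at 512, 368, 372 and 398 CPM beside 111, 110 and 147 CPM. Both genes lay above all class values. Of 20 collagen genes fitted, 10, 8 and 10 were higher and 1, 6 and 7 lower than in the Pi16, Cilp and Angptl7 classes. Among those lower than in the Angptl7 class were further basement membrane collagens, Col15a1 (373 CPM in members and 1467 in that class), Col18a1 (88.7 and 158) and Col4a4 (11.3 and 28.5). Those higher in all 3 contrasts were the chains Col4a1, Col4a2, Col5a2, Col5a3, Col6a2 and Col6a3, and outside the list Col27a1 (65.2 ± 4.61 CPM, SD, n = 4, beside 15.7 to 18.2 CPM). Of 32 matrix glycoprotein and proteoglycan genes 10 were higher and 16 lower than in the Pi16 class, 8 and 17 against the Cilp class and 13 and 9 against the Angptl7 class, with median log2 fold changes of -0.52, -0.68 and 0.31, and none was higher in all 3.

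Of 8 genes on the mural cell list, Des and Notch3 were higher in members in all 3 contrasts. Des, the intermediate filament of muscle and pericytes, was at 38.6, 20.9, 17.4 and 15.8 CPM beside 4.86, 3.19 and 0.85 CPM. Notch3, a receptor typical of mural cells, was at 28.3, 27.2, 8.69 and 19.8 CPM beside 2.17, 4.1 and 1.78 CPM. The pericyte marker Abcc9 was at 36.0, 66.9, 38.5 and 54.0 CPM in members, higher than in the Pi16 and Angptl7 classes (18.8 and 7.33 CPM) and beside 52.6 CPM in the Cilp class. Acta2 was lower than in the Cilp class and Mcam lower than in the Angptl7 class. Rgs5, a pericyte marker, was at 0, 0, 0 and 1.32 CPM in members, and Myh11 was at 0 because the rule required it. The 8 genes summed to 79.5 to 134 CPM in members, 12.6 to 63.1 in the Pi16 class, 79.8 to 140 in the Cilp class and 11.9 to 48.9 in the Angptl7 class. The call of Notch3 in all 3 contrasts was lost without sham batch 1 (smallest log2 fold change 1.57), PSNL batch 1 (1.83) or PSNL batch 2 (1.87) and with no replicate block (2.05). Whether mural RNA has a part in the levels of Des and Notch3 was not tested.

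Among factors that act on neurons, the neurotrophin Ntf3, which signals through TrkC, was at 123, 83.6, 73.2 and 55.3 CPM in members. No class value reached these, with means of 10.6, 19.6 and 3.81 CPM and log2 fold changes of 2.87 ± 0.29, 1.92 ± 0.27 and 4.93 ± 0.46. Ndnf, a secreted factor first described for its effect on neurons, was at 48.8, 77.3, 90.6 and 94.8 CPM, again above all class values (means of 6.24, 26.9 and 13.2 CPM). Slit2, a repellent axon guidance cue, averaged 46.0 CPM beside 15.2, 25.1 and 2.88 CPM, and Ptn, the growth factor pleiotrophin, ranged from 7.71 to 387 CPM. The guidance genes Ntn4 and Sema3b went the other way. Ntn4, a netrin, was at 25.7, 30.3, 27.3 and 23.7 CPM beside class means of 93.7, 107 and 257 CPM, with log2 fold changes of -1.75 ± 0.26, -2.07 ± 0.26 and -3.19 ± 0.25. Of the 20 neurotrophic and guidance genes fitted, 6 were higher and 6 lower than in the Pi16 class, 6 and 4 against the Cilp class and 5 and 4 against the Angptl7 class, where 7.82% and 7.83%, 4.42% and 4.77%, and 12% and 11.4% of all genes were higher and lower.

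Fst encodes follistatin, an inhibitor of activin. It was at 720, 903, 699 and 1150 CPM in members, above all class values, whose means were 260, 260 and 62.3 CPM. Its log2 fold changes were 1.75 ± 0.14, 1.62 ± 0.14 and 3.83 ± 0.17. Rspo3, an amplifier of Wnt signals, was low but higher in all 3 contrasts, at 10.3, 24, 28.6 and 32.9 CPM. Of the 27 genes on the list of BMP, TGF-beta and Wnt signals, 8 were higher and 9 lower than in the Pi16 class, 3 and 10 against the Cilp class and 13 and 6 against the Angptl7 class, beside the same shares of all genes. The medians were 0.12, -0.30 and 1.24, and Fst and Rspo3 alone were higher in all 3. Of 13 FGF ligands and receptors other than Fgf10 fitted, 3 were higher and 5 lower in members than in the Pi16 class. The counts were 2 and 2 against the Cilp class and 3 and 2 against the Angptl7 class. None was higher or lower in all 3, and Fgf7, the closest relative of Fgf10, was higher than in the Pi16 and Angptl7 classes.

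Among genes with a mean of at least 20 CPM in each of the 3 classes, Ramp1 led those lower in members than in all 3. It encodes a subunit of the receptor for the neuropeptide CGRP. It was at 0, 2.09, 19.9 and 1.32 CPM in members, so that 1 library held most of its RNA, beside class means of 30.8, 40.7 and 142 CPM. Myoc, which encodes the secreted glycoprotein myocilin, was the most abundant of them, at 337, 358, 252 and 628 CPM beside 1564, 1602 and 1711 CPM. Its log2 fold changes were -1.98 ± 0.20, -2.10 ± 0.20 and -2.27 ± 0.20. Islr was at 172, 244, 233 and 269 CPM beside 614, 503 and 687 CPM, and Pamr1 averaged 40.2 CPM beside 194, 219 and 84.5 CPM. Pthlh, a parathyroid hormone-like peptide, averaged 6.40 CPM beside 41.2, 54.7 and 21.8 CPM, and Ccn3, a matricellular protein, averaged 30.7 CPM beside 217, 216 and 84.2 CPM. Atp6v0e2 and Phactr1 averaged 9.98 and 11.1 CPM in members beside class means of 21.1 to 25.4 CPM. A call in all 3 contrasts was lost for Phactr1 without sham batch 1 (-0.80), PSNL batch 1 (-0.80) or PSNL batch 2 (-1.05) and with no replicate block (-1.01), for Atp6v0e2 without PSNL batch 1 (-1.02) or PSNL batch 2 (-1.07), and for Ccn3 without sham batch 2 (-0.94), the values being the smallest of the 3 log2 fold changes.

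**Figure D3:**
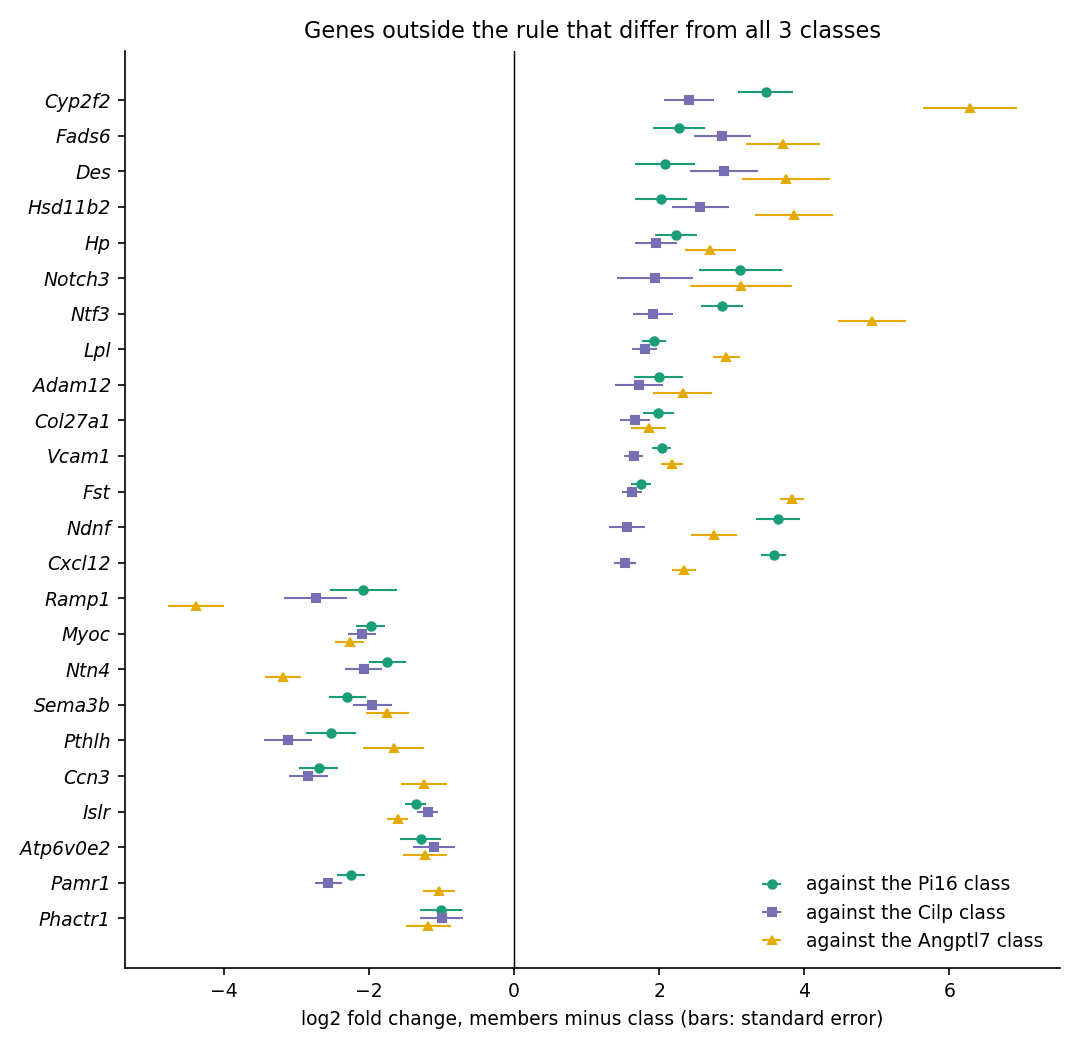
Log2 fold change of members minus each class (x axis) for 14 of the 15 higher and for the 10 lower genes chosen by rule (y axis), fitted with edgeR over the 4 month 2 libraries; points are the estimates and bars are ± 1 SE. The higher genes start with Cyp2f2 and end with Cxcl12, whose smallest difference is 1.53, and the lower genes run from Ramp1 to Phactr1.

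Immediate-early genes respond within minutes to stimulation and also to tissue dissociation. They set the members apart from all 3 classes, in a direction that depended on the class. Of 22 such genes 15 were higher than in the Pi16 class and 17 higher than in the Cilp class, with medians of 1.10 and 1.08 on the log2 scale. Against the Angptl7 class 3 were higher and 11 lower, with a median of -0.36. Fos averaged 2821 CPM in members, 844 in the Pi16 class, 1074 in the Cilp class and 4498 in the Angptl7 class. The part of these genes in the other differences was not tested.

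Of 23 interferon response and antigen presentation genes fitted, 6, 5 and 16 were higher than in the Pi16, Cilp and Angptl7 classes and 0, 0 and 1 lower, where 7.82%, 4.42% and 12% of all genes were higher. Of these, 2 were higher in all 3 contrasts, H2-Q4 and Ifi27. H2-Q4, a non-classical MHC class I gene whose near-identical relatives make its count uncertain, was at 121, 163, 142 and 141 CPM beside 62.7, 59.4 and 73.6 CPM. Of 7 genes of dividing cells and of 9 immune marker genes, 0 were called in any of the 3 contrasts.

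The members were not uniform, and the 105 led by Cxcl13 were set beside the 423 led by Cxcl14. This split was chosen after the values were seen and uses marker genes, so it is described with no test. Over 3510 genes outside the rule with a mean of at least 50 CPM in either set, 72 (2.05%) were higher in the Cxcl13-led cells of every library than in the Cxcl14-led cells of any, and 64 (1.82%) were lower in this way. Of the 72 higher genes, 65 (90.3%) had their highest class mean in the Pi16 class, where 45.1% of all 3510 genes did. Of the 64 lower genes, 34 (53.1%) had their lowest class mean in the Pi16 class, beside 27.2% of all. The highest class mean lay in the Cilp class for 31 of the 64 (48.4%), beside 18.1% of all.

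Ackr3 was at 293, 302, 213 and 283 CPM in Cxcl13-led cells and at 75.0, 89.9, 71.0 and 107 CPM in Cxcl14-led cells. The endothelin gene Edn1, which encodes a vasoconstrictor peptide, was at 36.6, 57.4, 56.9 and 66.9 CPM beside 4.41, 3.21, 10.9 and 2.17 CPM, from 29 and 10 UMIs in all. Pcolce2, a collagen-processing enhancer, averaged 358 CPM beside 137 CPM, and Tek, the angiopoietin receptor, 64.2 beside 13.4 CPM. All of these genes were also higher in the Pi16 class than in the other classes (Ackr3 834, Edn1 189, Pcolce2 897 and Tek 178 CPM). In the opposite direction, Mgp, which encodes an inhibitor of calcification, was at 412, 108, 199 and 66.9 CPM in Cxcl13-led cells and at 1337, 1633, 1357 and 2472 CPM in Cxcl14-led cells. The protease inhibitor Cst3 averaged 1771 beside 4798 CPM, and the tissue factor gene F3 averaged 73.1 beside 215 CPM. The mean level of Mgp was 165 CPM in the Pi16 class, 2336 CPM in the Cilp class and 606 CPM in the Angptl7 class.

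The 25 named genes were set beside the class means in both kinds of cell, with the limit that Cxcl14-led cells were 65.5% of the members whose sums named these genes. Of the 15 named higher genes, 14 exceeded all 3 class means in Cxcl13-led cells and 15 did so in Cxcl14-led cells, and the 10 named lower genes were under all 3 class means in both. The exception among the named genes was Notch3, with no UMI in Cxcl13-led cells, which allows up to 5.73 CPM, and 53 UMIs in Cxcl14-led cells. The mean level of Cxcl12 was 1480 CPM in Cxcl13-led and 2408 CPM in Cxcl14-led cells, and that of Lpl was 1751 and 2206 CPM.

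**Figure D4:**
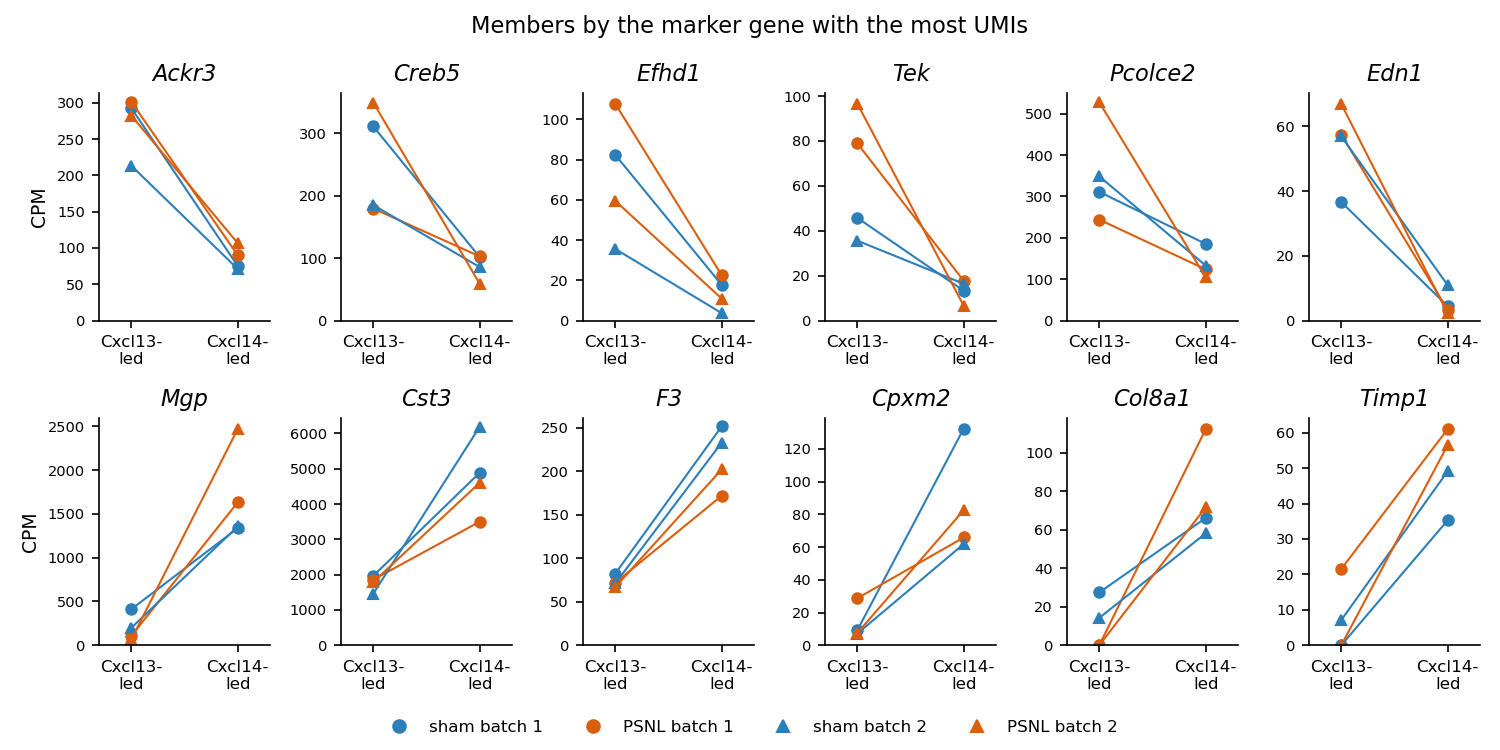
Level in CPM (y axis, linear from 0) of 12 genes in members led by Cxcl13 and by Cxcl14 (x axis); each line joins the 2 sums of 1 month 2 library. The upper 6 genes are higher in Cxcl13-led cells of every library, with Ackr3 between 213 and 302 CPM, and the lower 6 are higher in Cxcl14-led cells, with Mgp between 1337 and 2472 CPM.

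The effect of PSNL on the members themselves was tested with edgeR on 2 PSNL against 2 sham sums over 8612 genes. No gene passed the adjusted threshold (0 called, 0% of those tested), 212 genes had an unadjusted p under 0.05, and DESeq2 called 0, with 62 at an unadjusted p under 0.05. The labels say that both libraries of a number share a batch, and with the batch as a replicate block edgeR called 24 genes, 4 higher (0.0464% of those tested) and 20 lower with PSNL (0.232%), or 0.279% together. Leaving out 1 library at a time, without the block, 2 genes were called without sham batch 1, 16 without PSNL batch 1, 102 without sham batch 2 and 7 without PSNL batch 2, of which 2, 9, 19 and 0 were among the 24. The values of these 24 genes follow as those of the blocked fit, which leaves 1 degree of freedom among libraries for each gene before the spread is pooled over genes. Only sums were compared, so fewer cells with RNA of a gene and less RNA per cell were not told apart here.

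The 3 interferon-induced genes among them were lower with PSNL. Isg15, a ubiquitin-like modifier, was at 69.4, 43.9, 205 and 35.6 CPM in members, so both sham values lay above both PSNL values, at a log2 fold change of -1.71 ± 0.35 (edgeR with block, adjusted p = 0.00139). Ifit3 was at 43.7, 18.8, 79.5 and 25 CPM (-1.52 ± 0.38, edgeR adjusted p = 0.0307) and the GTPase Ifi47 at 33.4, 14.6, 80.7 and 22.4 CPM (-1.64 ± 0.39, edgeR adjusted p = 0.02), again without overlap. In the other fibroblasts Isg15 was at 29.2, 34.5, 75.9 and 32.8 CPM, Ifit3 was at 15.7, 13.9, 29 and 18 CPM, lower with PSNL in both batches there too, and Ifi47 stayed between 14.8 and 16.5 CPM. The sham library of batch 2 was the highest for all 3 genes in members. Of the 23 genes on the interferon list 0 were called without the block, and their median log2 fold change was -0.30 beside 0.0025 over all genes. With the block 0 were higher and 2 lower, Isg15 and Ifit3, where 0.232% of all genes were lower. Ifi47 is not on that list.

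The genes higher with PSNL in the blocked fit were Pla1a, Postn, Lmo7 and Ptn. Pla1a, a phospholipase that makes lysophosphatidylserine, was at 7.71, 57.5, 23.6 and 79.0 CPM in members, without overlap between the groups (2.00 ± 0.41, edgeR adjusted p = 0.00139). Its level in the other fibroblasts was higher throughout, at 261, 207, 117 and 157 CPM, and was higher with PSNL in batch 2 only. Postn, the matricellular protein periostin, was at 72.0, 268, 271 and 452 CPM (1.18 ± 0.30) and overlapped between the groups, as did Ptn at 7.71, 82.6, 224 and 387 CPM (1.33 ± 0.34). In members, each PSNL value of both genes exceeded the sham value of its own batch. Lmo7, a regulator of cell junctions and the actin cytoskeleton, was at 12.9, 31.4, 18.6 and 69.8 CPM (1.65 ± 0.43). In the other fibroblasts these 3 genes were higher in both PSNL libraries than in both sham libraries. Their levels there were 238, 634, 232 and 351 CPM for Postn, 3.92, 117, 50.4 and 85.7 CPM for Ptn and 6.96, 28.9, 16.9 and 40.9 CPM for Lmo7. Of the 3, only Lmo7 was separated in this way in members.

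Of the 20 genes lower with PSNL, 16 had their highest member value in the sham library of batch 1, and 15 of those did so in the other fibroblasts as well. They included mitochondrial genes such as mt-Atp6 (1463, 407, 370 and 289 CPM), transfer RNA genes and predicted genes. Lipe, the hormone-sensitive lipase, was at 167, 23.0, 41 and 9.22 CPM in members and at 156, 26.3, 43.6 and 9.49 CPM in the other fibroblasts, nearly the same values in both. This library also held the highest mitochondrial share in members, and the part of that share in these calls was not tested. Outside this pattern, Cyp26b1, which degrades retinoic acid, was at 121, 32.4, 128 and 77.7 CPM (-1.29 ± 0.33, edgeR adjusted p = 0.0381), with both sham values above both PSNL values.

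Whether PSNL acted differently on members and on the other fibroblasts was tested as the interaction of class and condition over 11901 genes. No gene was called by edgeR (0%), 435 had an unadjusted p under 0.05, and DESeq2 called 0, with 64 at an unadjusted p under 0.05. Leaving out 1 library gave 1 gene without sham batch 1, 5 without PSNL batch 1, 9 without sham batch 2 and 10 without PSNL batch 2. The lowest adjusted p was 0.242, for Emb, an adhesion protein, at 231, 205, 262 and 200.2 CPM in members and 74.4, 124, 60.8 and 129 CPM in the other fibroblasts (interaction -1.22 ± 0.24 on the log2 scale). For Ifi47 the interaction was -1.80 ± 0.45 (edgeR adjusted p = 0.684), for Isg15 -1.14 ± 0.30 (0.71) and for Pla1a 1.74 ± 0.47 (0.71). None of the changes with PSNL was therefore shown to be particular to the members.

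**Figure D5:**
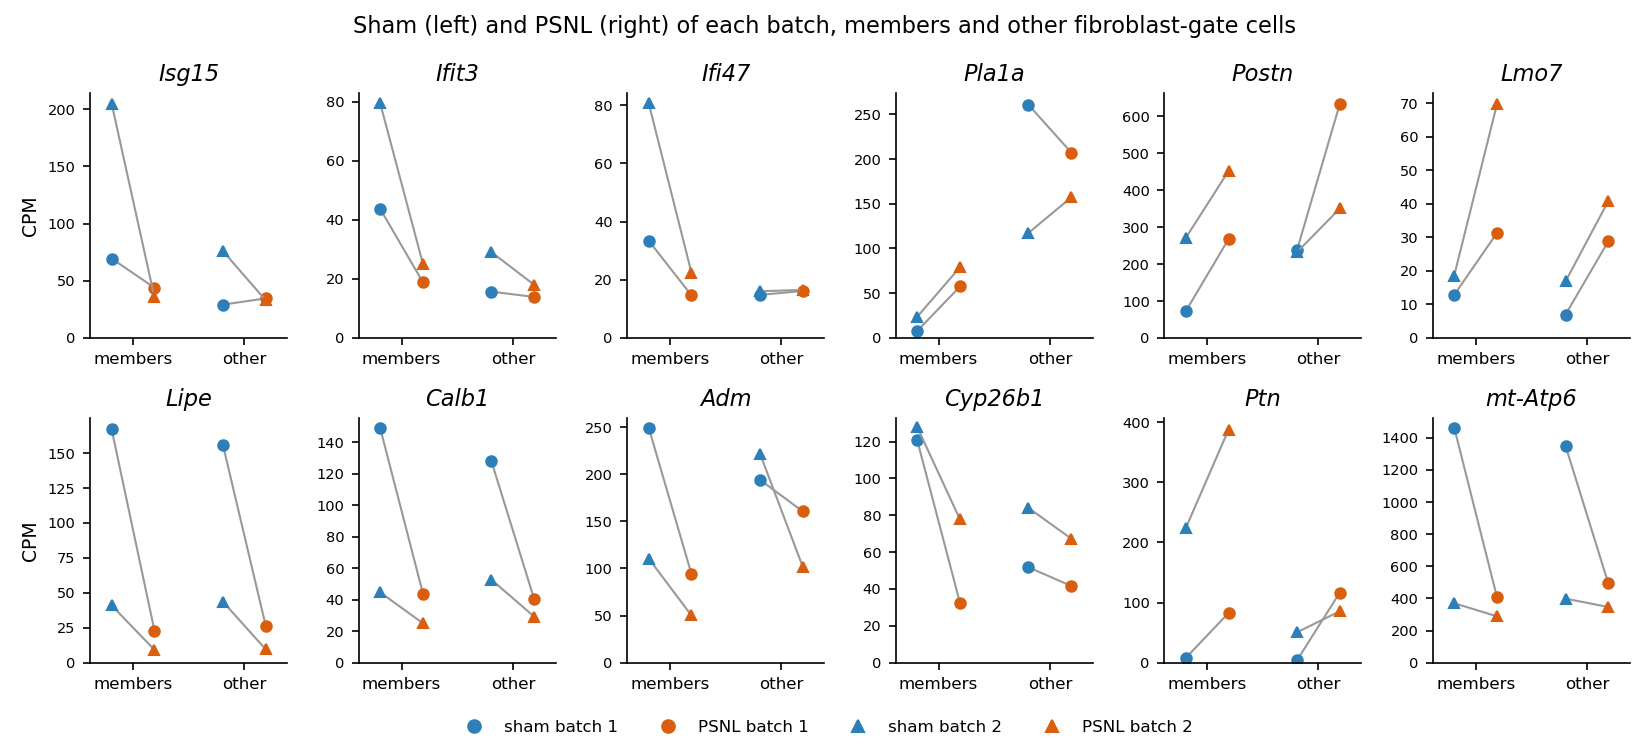
Level in CPM (y axis, linear from 0) of 12 of the 24 genes called with the batch as block, in members and in the other fibroblasts (x axis); each line joins the sham library (left) and the PSNL library (right) of 1 batch. Isg15, Ifit3 and Ifi47 lie lower with PSNL in members of both batches, and Lipe follows nearly the same course in both kinds of cell.

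The marker genes chose the cells and are given without a test in this contrast. The log2 fold change, PSNL minus sham, was -0.92 for Cxcl13, where the sham library of batch 1 was high and the groups overlapped. It was 0.83 for Fgf10, where both PSNL values lay above both sham values, 0.10 for Ccl19 and -0.25 for Cxcl14, where the groups overlapped.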

How the data were processed

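The deposited files analysed here hold raw UMI counts for every barcode of 5 libraries. The authors made them with kallisto and bustools, whose versions the submitters' processing notes give as 0.46.2 and 0.40.0, against GRCm38, and they were not normalised. A symbol was given for 55154 of the 55421 gene identifiers. The sham library of day 5 was not used here. No filter on cells is given in the sources used here, so barcodes with at least 1000 UMIs and under 10% mitochondrial UMIs were taken as cells. UMIs were summed per library and class over at least 5 cells, given as CPM, and compared in R 4.3.3 by the quasi-likelihood test of edgeR 4.0.16, with TMM scaling, a filterByExpr filter that also kept listed genes with a count in the sums, and Benjamini-Hochberg adjustment at 0.05. Comparisons of classes had the library as block. PSNL was compared with sham without a block, and with the batch as replicate block as an alternative, since the labels give the batch. Deviations from the group means in members correlated between the libraries of a batch (r = 0.25 over 8520 genes). DESeq2 1.42.0 and the other alternatives are in the closing section. Shares were compared by exact permutation with scipy 1.17.1 in Python 3.11.15, with pandas 2.3.3, numpy 2.4.6 and scanpy 1.11.5. A count of 0 was given the limit of 3 counts. The PSNL fit without block, the contrast with the Angptl7 class and the interaction were tested on simulated counts with genes changed 4-fold. The counts were drawn with a spread set below the one estimated over the sums. In that order the fits recovered 181 of 197, 188 of 200 and 135 of 200 changed genes. False calls numbered 4, 7 and 13. The fit with the replicate block was not simulated.

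Members, gene lists and tests were chosen with earlier results of these data known. Named genes were up to 15 higher and 10 lower genes outside the 22 genes of the rule, called in all 3 contrasts of classes. They were ranked by the smallest of the 3 log2 fold changes. Higher genes needed a mean of at least 20 CPM in members, and lower genes a mean of at least 20 CPM in each of the 3 classes. Predicted, ribosomal and mitochondrial genes were left out. List genes called in all 3 contrasts were also named. The rule for PSNL (up to 10 genes in each direction, called and moving one way in both batches) named none, so the genes given for the blocked fit, those of the 2 leading-gene sets and other examples were chosen after their values were seen. Single values of 2 genes are not reported here, and counts over the lists and named genes include them. Libraries are the replicates. Nothing states that the nerves of a batch came from separate experiments, so p-values measure the spread between these libraries.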

Additional observations from a re-analysis of the deposited data

Results flagged for a closer look

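The day 5 PSNL library took no part in the rule or in any comparison, and the same rule took 25 of its 295 fibroblasts as members (8.47%, 95% exact interval 5.56% to 12.3%). This signal was singled out because it lies in a library outside the main measurement, above what a count of 0 would allow. There was 1 such library and its sham counterpart was not analysed here, so nothing was tested. These 25 cells held 385056 UMIs at a median of 14292, deeper than the month 2 members. Adipocyte and muscle markers summed to 197 CPM in them (76 UMIs, with Adipoq, Plin1 and Cidec detected and the other 5 genes at 0), beside 4.18 to 11.2 CPM in month 2 members and 4.85 to 10.1 CPM in the other day 5 classes. Mural markers summed to 229 CPM and dividing-cell markers to 187 CPM, beside 79.5 to 134 and 58.4 to 66.9 CPM in month 2 members. The other day 5 classes held 69.7 to 507 CPM of mural and 80.8 to 237 CPM of dividing-cell markers, with the highest sums in the Cilp class. The part of these markers in the day 5 values was not tested. Cxcl14 stood at 914 CPM, Ccl19 at 164, Cxcl13 at 145 and Fgf10 at 20.8 CPM. Cxcl13 did not mark the members there, since the Pi16 class held 162 CPM. Of the 118 genes higher in members in all 3 month 2 contrasts, the members were the highest class at day 5 in 57 (48.3%) and the lowest in 13 (11%), beside 31% and 25% of all genes. Of the 31 lower genes they were the lowest in 18 (58.1%) and the highest in 1. Of the 15 named higher genes, the members were the highest class in 9, while Cyp2f2 and Fads6 were not detected in them, which allows up to 7.79 CPM, and each was tied with another class at 0. A tie was counted neither as highest nor as lowest.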

How the results depend on the processing

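Depth limits these results: members held 388998 to 956742 UMIs per library, and only 64 members came from sham batch 1. With 2 libraries per group, PSNL effects on single genes rested on few values. For PSNL against sham in members, 0 genes were called in the reported fit, 24 with the batch as replicate block, 6 without the filter on low counts (5 of them among the 24), and 2 to 102 when 1 library was left out, which leaves 1 arm with a lone sample assumed to vary like the other arm. DESeq2, RLE scaling, cells of at least 2000 UMIs, a class sum of at least 5, subtraction of free RNA, and removal of Scrublet calls gave 0. These fits had no block, so they did not repeat the blocked fit of the 24 genes. The named genes and those of the blocked fit, 49 together, were followed over the alternatives. With free RNA subtracted, 40 of them still had a value. For the difference of the PSNL effect, 0 genes were called in the reported fit, 12 without the filter, 1 with free RNA subtracted and 1 to 10 with a library left out. Against the Pi16, Cilp and Angptl7 classes 983, 504 and 1720 genes were called with no replicate block, and 1147 to 1490, 631 to 909 and 1738 to 2267 with a library left out. Genes higher in all 3 contrasts numbered 61 with no replicate block and 77 to 97 with a library left out, and lower genes 18 and 17 to 24. In an alternative added after seeing the data, with only Cxcl14-led cells as members, they numbered 97 and 27. Of 324 alternative values of the named genes 310 kept their calls in all 3 contrasts, and Hp (1.81), Notch3 (2.05) and Phactr1 (-1.01) lost theirs with no replicate block, and Phactr1 also at a class sum of at least 5 (-0.96) and with Cxcl14-led cells alone (-1.0). The share difference of 2.26 points was the same with the replicate block (exact permutation p = 1), -1.12 points over all cells, and -2.34 to 6.86 points with a library left out. The causes of these shifts were not tested.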

Other observations

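The complement system, a cascade of plasma proteins that tags and lyses targets, was spread over several fibroblast classes. Of 19 complement genes fitted, 6 were higher and 1 lower in members than in the Pi16 class, 0 and 5 against the Cilp class and 9 and 1 against the Angptl7 class, where 7.82% and 7.83%, 4.42% and 4.77%, and 12% and 11.4% of all genes were higher and lower, and none in all 3 contrasts. C3, the central component, was at 4309 and 3427 CPM in members of the sham and PSNL libraries of batch 1 and at 3552 and 2519 CPM in those of batch 2, near the Pi16 class mean of 3250 CPM and above 1892 CPM in the Cilp class and 229 CPM in the Angptl7 class. C4b averaged 1120 CPM in members beside 345, 722 and 69.5 CPM and was the highest of the 4 classes in each library.

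Transcription factors were also described by count. Of 27 fitted, 7, 5 and 7 were higher in members and 4, 6 and 9 lower against the Pi16, Cilp and Angptl7 classes, beside the shares of all genes just given. Prrx2, a homeobox factor of limb and skin mesenchyme, was the only one higher in all 3, at 110, 72.1, 77.0 and 81.7 CPM beside class means of 32.8, 43.8 and 16.2 CPM, and its member values lay above all class values. Of 18 NF-kB target and acute phase genes, Il1r1 and Steap4, a metalloreductase, were higher in all 3. Steap4 averaged 376 CPM in members beside 67.0, 175 and 229 CPM. These calls describe differences between classes cut from the same cells.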
